A study of Mus musculus with 4 samples.

Results

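The miR-30 family in mouse naive CD4+ T cells was described through 9 mature miRNAs of the deposited table, selected by name alone out of the 1073 miRNAs it lists. They are the 5p arms mmu-miR-30a-5p, mmu-miR-30b-5p, mmu-miR-30c-5p, mmu-miR-30d-5p and mmu-miR-30e-5p, and the 3p arms mmu-miR-30a-3p, mmu-miR-30b-3p, mmu-miR-30d-3p and mmu-miR-30e-3p. Small RNA was sequenced from splenic T cells of wild-type mice in 2 groups of 2 samples. One group was transfected with ASO and the other with CRO, the control for ASO. All cells were then stimulated with antibodies to CD3 and CD28 and harvested 48 h later. The labels name neither the sequence nor the target of ASO, and give no age, sex or strain, so no targeted gene could be checked. Nothing in the labels says whether samples of a group came from separate animals or cultures, so a p-value here reflects how these samples scatter, and that scatter may be technical only.

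A miRNA hairpin is cut from its primary transcript by Drosha and trimmed by Dicer into a duplex of a 5p and a 3p strand. One strand is kept by an Argonaute protein as the guide, which represses mRNAs that pair with its seed, the bases near its 5′ end. The miR-30 hairpins share the seed of their 5p arms. In human cells miR-30a lowers the autophagy protein beclin, and in mouse T helper cells it has been reported to restrain the Th17 fate.

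Sequences were found in RefSeq (GRCm38.p6) for 5 of the 9 members and for both 3p arms of the miR-30c hairpins. They are printed because the members differ from one another by so little. Capitals mark the seed, bases 2 to 8 counted from 1 at the 5′ end.
mmu-miR-30a-5p: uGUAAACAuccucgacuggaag
mmu-miR-30e-5p: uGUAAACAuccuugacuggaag
mmu-miR-30c-5p: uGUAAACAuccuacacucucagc
mmu-miR-30a-3p: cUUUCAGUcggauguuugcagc
mmu-miR-30e-3p: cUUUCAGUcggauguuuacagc
mmu-miR-30c-1-3p: cUGGGAGAggguuguuuacucc
mmu-miR-30c-2-3p: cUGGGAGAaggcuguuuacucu

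The 5p arms shown had the seed GUAAACA, which 4 of the 1679 mature names in the RefSeq table carried (0.238%). These were the 5p arms shown and mmu-miR-384-5p. No sequence was found for mmu-miR-30b-5p and mmu-miR-30d-5p, so this count leaves them out. The 3p arms of miR-30a and miR-30e had another seed, UUUCAGU, and those of miR-30c a different one again, UGGGAGA. mmu-miR-30a-5p and mmu-miR-30e-5p differed at 1 of 22 bases, C13U, and mmu-miR-30a-3p and mmu-miR-30e-3p also at 1, G18A. mmu-miR-30a-5p and mmu-miR-30c-5p shared their first 12 bases. How the authors assigned reads that match both members of such a pair is not given in the sources used here, so the split of reads between miR-30a and miR-30e is uncertain.

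The same RefSeq entries place 4 hairpins in 2 pairs on GRCm38.p6. Mir30a (chr1:23272269-23272339, plus strand) lay 19.4 kb upstream of Mir30c-2 (chr1:23291701-23291784, plus strand), with Mir30c-2 in an exon of the lincRNA Gm27028 in GENCODE M21. Mir30e (chr4:120772606-120772697, minus strand) lay 2983 bases from Mir30c-1 (chr4:120769534-120769622, minus strand). Both of these sat in an intron of Nfyc, which encodes a subunit of the CCAAT-binding factor NF-Y. The mature miR-30c-5p is the same from either miR-30c hairpin, so its count cannot be divided between the loci. The hairpins of the near-identical pair are shown with both mature arms in capitals.
Mir30a: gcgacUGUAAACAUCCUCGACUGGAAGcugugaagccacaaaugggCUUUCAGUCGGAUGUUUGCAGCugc
Mir30e: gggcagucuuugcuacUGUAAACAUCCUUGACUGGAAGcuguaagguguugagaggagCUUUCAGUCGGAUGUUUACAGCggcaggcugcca

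The deposited table gives the mean of each group's normalised read counts, that is, counts divided by a size factor for the depth of each library. Whole counts per library were worked back from those means, and the 2 libraries of a group are called a and b, names that carry no replicate number. The decoded totals were 10192717 and 10483405 counts in ASO, against 5617699 and 3300457 counts in CRO. The T cell and blood list (miR-142a, miR-150-5p, miR-155-5p and miR-181a-5p, 5 of 5 in the table) summed to 1990313 and 2240071 normalised counts in ASO, against 1930520 and 1852196 in CRO. Lists of other cell types were far lower: 1768 to 2112 in ASO against 3018 to 3575 in CRO for 5 erythroid miRNAs, 5599 to 5669 against 6189 to 7239 for 2 myeloid ones, and 4464 to 4623 against 5439 to 5525 for 6 epithelial ones. The 5 stromal and muscle miRNAs in the table, of 6 listed, summed to 47.8 to 52.3 in ASO and 50.3 to 85.7 in CRO. None of the markers in the table was at 0 over all libraries, and none passed the authors' adjusted p.

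Every member was detected in every library, but their levels spanned over 2 orders of magnitude. mmu-miR-30d-5p led, with a mean of 38610 normalised counts over all libraries, which ranked it 29 of 1073. mmu-miR-30c-5p followed at 25728 (rank 32), mmu-miR-30e-5p at 18833 (rank 37) and mmu-miR-30b-5p at 8463 (rank 52). The fifth 5p arm, mmu-miR-30a-5p, stood apart at 579 (rank 156), below the 3p arm mmu-miR-30e-3p at 2325 (rank 95). The remaining 3p arms were the least counted, mmu-miR-30b-3p at 192, mmu-miR-30d-3p at 109 and mmu-miR-30a-3p at 83.1. The mature sequences that were found have 22 or 23 bases, so length differs little between members, but ligation and amplification bias between sequences was not measured.

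**Figure D1:**
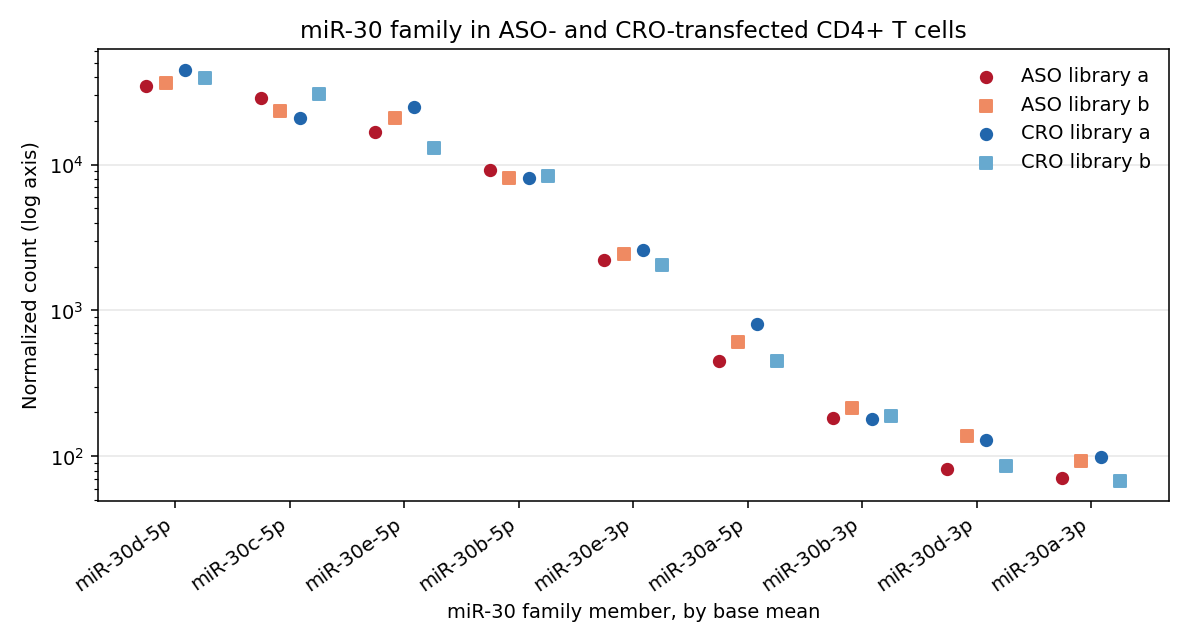
Normalised read counts of the 9 members on a log axis, 1 point per decoded library, with ASO left of CRO for each member. The 4 abundant 5p arms stand at 8134 or more in every library, and the points of ASO and CRO overlap for every member except mmu-miR-30d-5p.

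mmu-miR-30d-5p had 34492 and 36094 normalised counts in ASO libraries a and b, against 44471 and 39384 in CRO libraries a and b. Both ASO libraries lay below both CRO libraries. mmu-miR-30c-5p had 28422 and 23301 in ASO, against 20742 and 30447 in CRO. Here CRO held both the lowest and the highest library. mmu-miR-30e-5p had 16732 and 20785 in ASO, against 24907 and 12905 in CRO, again with CRO at both ends. mmu-miR-30b-5p was the steadiest of the 5p arms, with 9172 and 8136 in ASO, against 8134 and 8411 in CRO. mmu-miR-30a-5p had 451 and 605 in ASO, against 810 and 451 in CRO, the same pattern of libraries as its near-identical relative mmu-miR-30e-5p at a far lower level.

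The order of the 9 members was the same in all libraries but 1. In CRO library a, mmu-miR-30e-5p stood above mmu-miR-30c-5p. The ratio of mmu-miR-30c-5p to mmu-miR-30e-5p was 1.70 and 1.12 in ASO, against 0.833 and 2.36 in CRO. The order of these neighbours therefore did not hold beyond the spread between libraries. mmu-miR-30d-5p and mmu-miR-30c-5p lay further apart in CRO library a than in any other. Around the top of the family, the next miRNAs in level were miR-24-3p at 42529 and miR-19b-3p at 40367 normalised counts above mmu-miR-30d-5p, and miR-27b-3p at 35969 and miR-20a-5p at 25863 below it.

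Together the 5p arms summed to 89095 normalised counts in ASO and 95331 in CRO, and the log2 of that ratio was -0.10. They made up 1.31% of all miRNA signal in ASO (1.42% and 1.21% in libraries a and b) and 1.45% in CRO (1.38% and 1.54%). In this percentage the libraries of the groups overlapped. In the summed counts they did not, with 89270 and 88921 in ASO libraries a and b, against 99063 and 91598 in CRO libraries a and b. Such a separation was shown by 41.9% of the 482 single miRNAs whose base mean reached 10. mmu-miR-30d-5p was the largest component, at 38.6% and 40.6% of the 5p sum in ASO, against 44.9% and 43.0% in CRO. mmu-miR-30c-5p took 31.8% and 26.2% in ASO, against 20.9% and 33.2% in CRO. mmu-miR-30e-5p took 18.7% and 23.4% in ASO, against 25.1% and 14.1% in CRO. Between the CRO libraries these shares of mmu-miR-30c-5p and mmu-miR-30e-5p thus moved in opposite directions, while the sum changed little. mmu-miR-30b-5p took 8.21% to 10.3% over all libraries, and mmu-miR-30a-5p stayed below 1%.

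**Figure D2:**
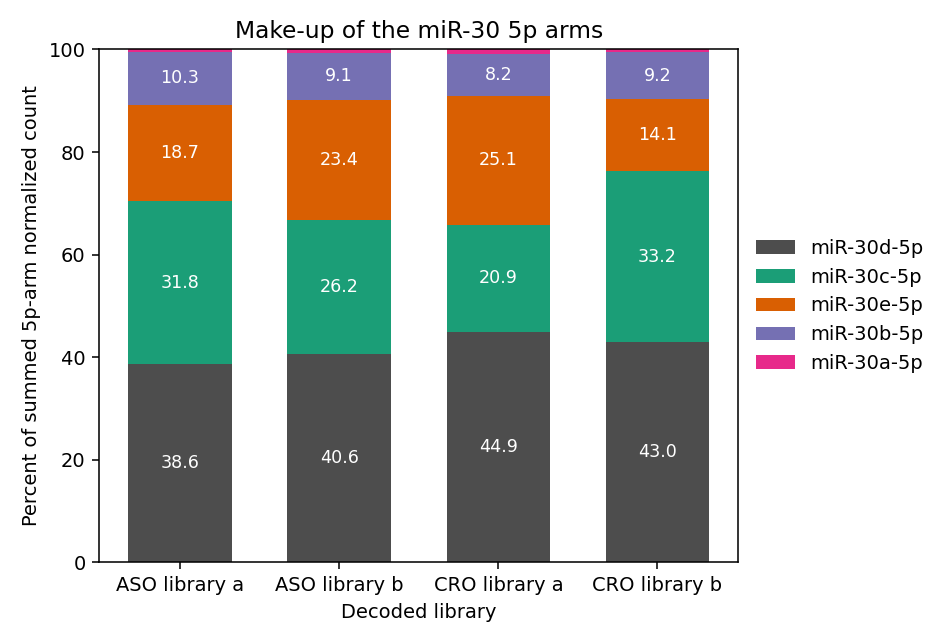
Make-up of the summed 5p arms in each decoded library, in percent of the 5p sum, with ASO libraries left of CRO libraries. mmu-miR-30d-5p is the largest piece throughout, and the pieces of mmu-miR-30c-5p and mmu-miR-30e-5p trade places in CRO library a.

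Arm balance can be compared free of the size factor, because both arms of a hairpin are counted in the same library. The 5p arm was the higher one in all 4 hairpins with both arms among the members, by widely different amounts. For miR-30d the 5p arm was 419-fold and 260.5-fold above the 3p arm in ASO, against 344-fold and 457-fold in CRO. For miR-30b the excess was 49.7-fold and 38.2-fold in ASO, against 45.1-fold and 44.6-fold in CRO. The hairpins with near-identical arms were far closer to balance. For miR-30e the 5p arm was 7.53-fold and 8.55-fold above its 3p arm in ASO, against 9.64-fold and 6.25-fold in CRO. For miR-30a the values were 6.38-fold and 6.47-fold in ASO, against 8.12-fold and 6.61-fold in CRO.

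Both arms were present for 135 miRNA names of the table at a base mean of 10 or more, and the 5p arm was the higher one for 79 of them. Over all 135, the median excess of the higher arm, whichever it was, came to 9.98-fold. Ranked by that excess among the 135, miR-30a stood at percentile 41.5, miR-30e at 45.2, miR-30b at 71.1 and miR-30d at 88.9. Names whose lower arm fell under a base mean of 10 were left out. The excess that a name can show therefore depends on its level, and the ranking was not matched for level. The 3p arm of miR-30e was itself well counted and held 11.7% of both arms in ASO library a (95% Wilson interval 11.4% to 12.1%) and 10.5% in ASO library b (10.1% to 10.8%). In CRO it held 9.40% in library a (9.01% to 9.79%) and 13.8% in library b (13.1% to 14.5%). The intervals, which cover counting error only, did not overlap between libraries of the same group. For mmu-miR-30d-3p the share was 0.238% (0.201% to 0.282%) and 0.382% (0.333% to 0.440%) in ASO libraries a and b, against 0.290% (0.238% to 0.352%) and 0.218% (0.165% to 0.290%) in CRO libraries a and b.

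**Figure D3:**
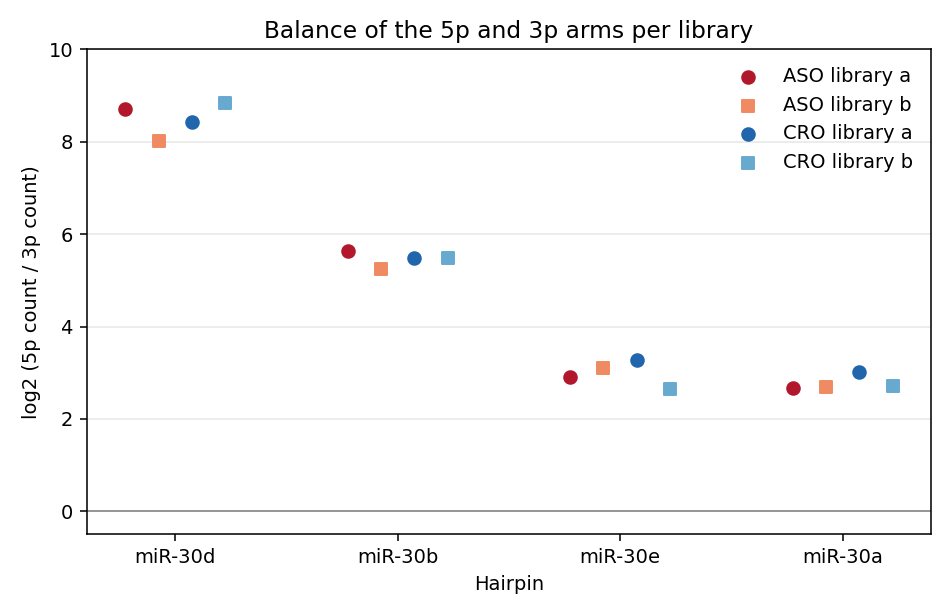
Fold of the 5p arm over the 3p arm for the 4 hairpins, on a log scale, 1 point per decoded library with ASO left of CRO. miR-30d lies at 260.5 or more in every library and miR-30b between 38.2 and 49.7, while miR-30a and miR-30e lie below 10.

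The arm balance was not found to differ between ASO and CRO. The difference of the log2 ratio of 5p to 3p, ASO minus CRO, was -0.19 for miR-30a, -0.04 for miR-30b, -0.26 for miR-30d and 0.05 for miR-30e on the library means. The two-sided exact permutation p was 0.33, 1, 0.67 and 1 in the same order, where 0.33 is the smallest that 2 against 2 libraries allow, and 1 for each after adjustment over the 4 hairpins. For miR-30a the libraries of the groups did not overlap, which is all that its p of 0.33 states. How many of the 135 names with both arms separate in this way was not counted. On the group means, the absolute change of miR-30a stood at percentile 47.4 among those 135 names.

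The 3p arms of the miR-30c hairpins are not members but leave the same precursors as mmu-miR-30c-5p, and unlike it they tell the loci apart. mmu-miR-30c-1-3p, from the Nfyc intron, had 104 and 83 counts in ASO libraries a and b, against 48 and 23 in CRO libraries a and b. mmu-miR-30c-2-3p, from the hairpin downstream of Mir30a, had 6 and 8 counts in ASO, against 0 and 4 in CRO. In each library most of the 3p counts thus carried the sequence of the hairpin next to Mir30e. The share of mmu-miR-30c-2-3p was 5.45% and 8.79% in ASO (95% Wilson intervals 2.52% to 11.4% and 4.52% to 16.4%). In CRO it was 0 of 48 (Wilson interval up to 7.41%, or 6.25% if a count of 0 is taken to allow 3 counts) in library a and 14.8% (5.92% to 32.5%) in library b. The levels of the neighbouring hairpins ran the same way, mmu-miR-30e-5p being 37.1-fold and 34.4-fold above mmu-miR-30a-5p in ASO, against 30.8-fold and 28.6-fold in CRO. Their 3p arms gave 31.4-fold and 26.0-fold in ASO, against 25.9-fold and 30.2-fold in CRO. mmu-miR-30c-5p exceeded the sum of both 3p arms 420-fold and 364-fold in ASO, against 338-fold and 628-fold in CRO. The mature arms of the 2 loci differ by G9A, U12C and C22U, and no read-level test of their assignment was made.

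No member passed the authors' test of ASO against CRO. Of the 9 members, 0 had, in the authors' deposited table, an adjusted p under 0.05, which 1.21% of the 1073 miRNAs had, and 0 had a raw p under 0.05, which 2.8% of them had. The smallest raw p was 0.418, for mmu-miR-30d-5p. Its log2 ratio of ASO over CRO was -0.25, a mean of 35293 normalised counts in ASO and 41928 in CRO. In limma, leaving out 1 library at a time gave values between -0.33 and -0.16. mmu-miR-30a-5p had a log2 ratio of -0.26 at a mean of 528 in ASO and 630 in CRO, with a raw p of 0.493 in the authors' deposited table. Here single libraries decided the limma value, at 0.0015 without ASO library a, 0.21 without CRO library a and -0.63 without CRO library b. The other 7 members had log2 ratios between -0.03 and 0.11, with mmu-miR-30b-3p at the upper end. Over the 9 members, 4 log2 ratios of the group means were below 0 and 5 above it. In limma with the authors' size factors the split was 3 below and 6 above. It moved with the scaling, to 7 below and 2 above with library totals and 2 below and 7 above with the upper quartile. Library totals put mmu-miR-30c-5p at -0.024, mmu-miR-30e-3p at -0.050 and mmu-miR-30d-3p at -0.040, and the upper quartile put mmu-miR-30e-5p at 0.15 and mmu-miR-30a-3p at 0.071. On the group means, the median log2 ratio of the members was 0.0013, beside 0.041 over the 482 miRNAs whose base mean reached 10. The members' median absolute log2 ratio, also on the group means, was 0.037, beside 0.29 over those 482. The 482 reach down to a base mean of 10 and the members only to 83.1, so the sets are not matched for level.

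A second test, limma with a mean-variance trend on the log2(normalised count + 1) of the decoded libraries, also called 0 of 9 members, where it called 3.11% of 482 miRNAs. At an unadjusted p under 0.05 it had 0 of 9, beside 12.2% of the 482. The smallest adjusted p was 0.763, for mmu-miR-30d-5p, at a log2 difference of -0.25 ± 0.22 (SE, n = 2 each) and a 95% interval of -0.77 to 0.27. For mmu-miR-30e-5p the difference was 0.06 ± 0.33, with an interval of -0.72 to 0.83, and for mmu-miR-30a-5p it was -0.21 ± 0.33, with an interval of -0.98 to 0.56. For mmu-miR-30b-5p it was 0.06 ± 0.22, with an interval of -0.44 to 0.56. Over all 9 members the intervals reached down to -0.98 and up to 0.86, and each included 0. Without ASO library a the interval of mmu-miR-30d-3p reached 1.54, and without ASO library b it reached -1.57, so these limits depend on single libraries. With single libraries left out, not every member's interval included 0. The exceptions were mmu-miR-30e-5p without CRO library a and mmu-miR-30a-5p without CRO library b. Both rest on a lone CRO library, so only the differences are given. The difference of mmu-miR-30e-5p was 0.53 without CRO library a and -0.42 without CRO library b. That of mmu-miR-30a-5p was 0.21 and -0.63 in the same order.

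**Figure D4:**
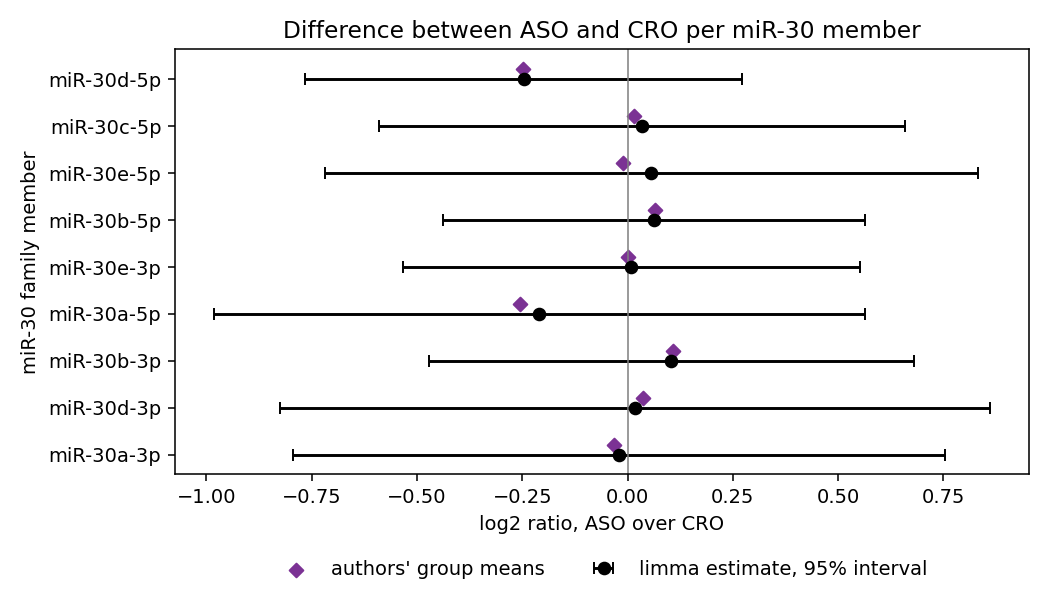
Log2 ratio of ASO over CRO for each member: the ratio of the deposited group means, and the limma difference with its 95% interval. All 9 intervals cross 0, and the largest deviations of the ratios are those of mmu-miR-30a-5p (-0.26) and mmu-miR-30d-5p (-0.25).

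The groups' libraries did not overlap for 1 of 9 members, mmu-miR-30d-5p, a separation that 41.9% of the 482 miRNAs showed. For 6 of 9 members the difference between the group means was smaller on the log2 scale than that between the CRO libraries. Among the 8 members whose base mean reached 100, 2 differed by at least 1.5-fold between the CRO libraries, as did 27.8% of 273 miRNAs at that level. These were mmu-miR-30e-5p (1.93-fold) and mmu-miR-30a-5p (1.79-fold), the pair that differs by a single base. At the other end mmu-miR-30b-5p differed by 1.03-fold and mmu-miR-30b-3p by 1.05-fold. Between the ASO libraries 1 of the 8 differed by at least 1.5-fold, mmu-miR-30d-3p at 1.67-fold, as did 6.23% of the 273. That arm rested on 134 and 197 counts in ASO, against 101 and 48 in CRO.

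These library differences can be set beside those of the table as a whole. For 8 of 9 members the library that was higher in ASO (a or b) bore the other letter than the one that was higher in CRO, as for 70.7% of the 273 miRNAs. The 9 include mmu-miR-30a-3p, whose base mean of 83.1 lies below the level of those 273. Swapping the letters of 1 group would turn each share into its complement. Across those 273 miRNAs the log2 ratio of library a to b in ASO had a Pearson r of -0.43 and a Spearman rho of -0.48 with that in CRO. The letters are arbitrary, so only the size of this relation can be read, and the miRNAs share their libraries and are not independent. The 2 endothelial miRNAs listed summed to 1687 and 2334 in ASO libraries a and b, against 1935 and 1399 in CRO libraries a and b, the same order of libraries as mmu-miR-30e-5p and mmu-miR-30a-5p within each group. The T cell and blood list and the epithelial list had this order too, while the erythroid, the myeloid and the stromal and muscle lists did not. The part of any of these cell types in the library differences was not tested.

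**Figure D5:**
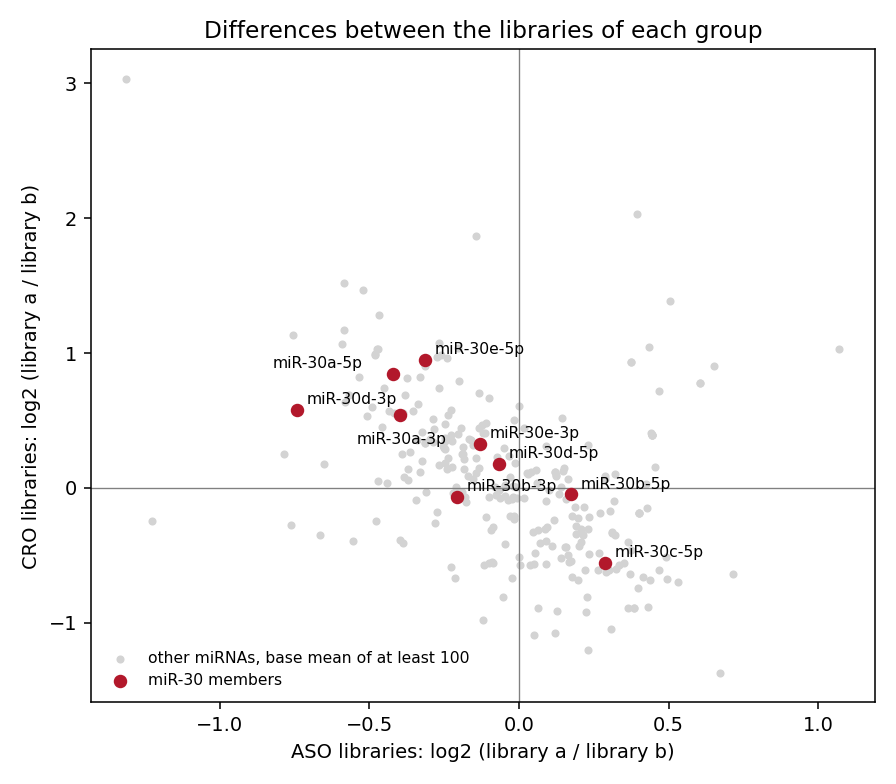
Log2 ratio of library a over library b in ASO (horizontal axis) and in CRO (vertical axis), 1 point per miRNA, grey for miRNAs whose base mean reached 100 and coloured for the members. Members from mmu-miR-30e-5p (-0.31 in ASO, 0.95 in CRO) to mmu-miR-30c-5p (0.29 in ASO, -0.55 in CRO) lie among the grey points.

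The miRNAs whose level over the 4 libraries was most like the summed 5p arms were found by the Euclidean distance between log2(normalised count + 1) profiles, each centred on its own mean, among 265 candidates. They were miR-31-5p (distance 0.061), miR-17-3p (0.12), let-7a-5p (0.12), let-7c-5p (0.13) and miR-425-5p (0.15), beside a median distance of 0.54. The nearest, miR-31-5p, had 7779 and 7859 normalised counts in ASO libraries a and b, against 9101 and 8008 in CRO libraries a and b. With 4 points per profile this is a description of these libraries only.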

How the data were processed

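Trizol RNA went into TruSeq small RNA libraries, per the labels' protocols. DESeq and the build mm9 come from the submitters' processing notes. How reads were trimmed, aligned and annotated is not given in the sources used here. In the table that the authors deposited, the signal columns are, per the file headers, mean normalised counts (base mean) over all libraries and per group. It also holds the authors' fold ratio and log2 ratio, both CRO over ASO and turned here to ASO over CRO, and the authors' p-value and adjusted p-value.

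A deposited group mean averages 2 whole counts after division by their libraries' size factors. With 15 significant digits, the means of all 1073 miRNAs could be written as whole counts to within 0.6 units of the 15th digit, in 1 solution. 6 miRNAs had several ways before the size factors and the fold column were used. Recomputed size factors were 1.626 and 1.422 in ASO and 0.782 and 0.557 in CRO. The decoded libraries could not be tied to replicate numbers.

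The authors' adjusted p (threshold 0.05) is the main test. limma 3.58.1 (R 4.3.3, trend and robust) was run on log2(normalised count + 1) of the decoded libraries, for the 482 miRNAs whose base mean reached 10. Both the decoding and the fit were tested on simulated data. The changes simulated for the fit were far larger than any member's difference, so they do not show its power for the members. Arm shares carry 95% Wilson intervals, which cover counting error only because PCR reads without molecular identifiers are not independent molecules. Exact permutation tests were two-sided. All 9 members were named, together with the miR-30c 3p arms and miRNAs chosen by likeness or level. The members and lists were chosen with earlier results of these data known. The alternatives varied the pseudocount (0.5, 10), the minimum base mean (none, 50), the scaling (library totals, upper quartile), the denominator of shares and the libraries kept. Sequences and coordinates are from RefSeq and GENCODE M21 on GRCm38.p6, used apart from the mm9 counts.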

Additional observations from a re-analysis of the deposited data

How the results depend on the processing

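No member was called under any of the alternatives run. The direction of most members rested on differences close to 0, and 23 of 99 alternative log2 ratios (ASO over CRO) changed sign, 10 of them among the 63 with all libraries kept. Changing the minimum base mean cannot alter a log2 ratio, so these counts hold repeats, among them those of mmu-miR-30e-5p. They are no measure of stability. With library totals in place of the authors' size factors the log2 ratio was -0.024 for mmu-miR-30c-5p, -0.050 for mmu-miR-30e-3p and -0.040 for mmu-miR-30d-3p. mmu-miR-30e-5p was at 0.057 in limma, also with pseudocounts of 0.5 and 10, unfiltered and at a minimum base mean of 50, and at 0.15 with upper-quartile scaling, under which mmu-miR-30a-3p was at 0.071. These scalings moved the median of the limma differences over the 482 miRNAs from 0.06 to 0.0017 (totals) and 0.15 (upper quartile), and the other causes were not tested. Leaving out 1 library at a time, with the lone library assumed to vary like the other group, gave log2 ratios from -0.33 to -0.16 for mmu-miR-30d-5p, -0.24 to 0.31 for mmu-miR-30c-5p, -0.42 to 0.53 for mmu-miR-30e-5p, -0.024 to 0.15 for mmu-miR-30b-5p, -0.15 to 0.17 for mmu-miR-30e-3p, -0.63 to 0.21 for mmu-miR-30a-5p, 0.00029 to 0.21 for mmu-miR-30b-3p, -0.35 to 0.39 for mmu-miR-30d-3p and -0.29 to 0.25 for mmu-miR-30a-3p. The smallest limma adjusted p of any alternative was 0.139, for mmu-miR-30e-5p without CRO library a.

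The 5p arms were 1.53% of signal in ASO and 1.67% in CRO without the most counted miRNA, and 1.53% and 1.68% without both miR-155 arms. Adding 1 to each count, with the libraries' log2 ratios then averaged, moved no arm ratio by as much as 1 SD. Averaging the log2 ratios alone could not do so, because both values lie between those of the 2 libraries. Leaving out 1 of 2 libraries returns the other one's value. Neither of these alternatives tests the arm ratios. No paired analysis was possible because the decoded libraries carry no replicate number. Counts of 38 to 303 in the least counted 3p arms limit the precision of their ratios.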
